A study of Homo sapiens with 12 samples.

Results

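The 32 genes described here encode the enzymes and regulators of cholesterol and fatty acid synthesis, and they were taken by symbol from raw count files that list 56832 symbols. The list is one of gene function, made with earlier results of these data known. It holds 7 genes of the mevalonate and isoprenoid steps, 11 genes that carry squalene to sterols, 5 regulators and carriers, and 9 genes of fatty acid synthesis and desaturation.

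Cholesterol is built from acetyl-CoA through mevalonate, isoprenoid units and squalene, and fatty acids from acetyl-CoA through malonyl-CoA. Both routes are switched on by the sterol regulatory element binding proteins (SREBPs). These factors stay in the endoplasmic reticulum with their escort SCAP while sterols and INSIG proteins hold them there, and enter the nucleus after being cut in the Golgi. Triiodothyronine (T3), the active thyroid hormone, acts through nuclear receptors that bind DNA with or without hormone, and is known in liver for inducing lipogenic genes.

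RNA sequencing was performed on SW1736, an established human line from an anaplastic thyroid cancer. Cells stably carried pCDH-TRB, a vector for thyroid hormone receptor beta (TRB cells), or the empty vector pCDH-EV (EV cells). All were starved of hormone for 24 h in charcoal-stripped serum without phenol red, then received 10 nM T3 or the NaOH vehicle for 24 h. Each of the 4 groups (EV with vehicle, EV with T3, TRB with vehicle, TRB with T3) has 3 libraries. The labels do not say whether the lines are clones or whether replicates were separate cultures, so p-values measure the spread between these libraries, which may be technical.

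THRB, the gene of the supplied receptor, matched the labels, at 12.3 to 18.3 CPM in the 6 EV libraries, 79.8 to 80.4 in TRB with vehicle and 190 to 322 in TRB with T3 (CPM gives a gene's count relative to the scaled total of its library). THRB counts were thus also higher with T3 than with vehicle in TRB cells. The part of this difference in the comparisons that use TRB with T3 was not tested. Thyroid markers were low: TSHR and FOXE1 were listed at 0 in every library, TG and SLC5A5 stayed at 0.625 CPM or less, and PAX8 lay between 0.72 and 6.98 CPM. The epithelial genes KRT8, KRT18, EPCAM and CDH1 were expressed in all libraries (135 CPM or more), while of the mesenchymal genes VIM stayed at 1.51 CPM or less and FN1 stood at 9.15 to 16.5 CPM with vehicle, 66.2 to 73.9 in EV with T3 and 147 to 303 in TRB with T3. The annotation and strand setting of the counting are not given in the sources used here, and the low VIM values are uncertain for that reason. The leukocyte genes PTPRC and CD3E and the endothelial genes PECAM1 and VWF were at 0.253 CPM or less, and CD14 reached 9.74 CPM in TRB with T3. Libraries held 3819306 to 13086717 counts in genes.

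Replicate 2 of TRB with T3 stood apart from replicates 1 and 3 of its group. Across 12130 tested genes, its departure from them in log2 CPM had a Spearman correlation of -0.9 with the GC content of the transcripts, and across the 32 lipid synthesis genes it was -0.89. These genes have GC contents from 37.4% to 65.3% (median 52.3%, against 49.2% for tested genes), and their departures in this library went far in both directions. FASN (65.3% GC) departed by -4.59 on the log2 scale, SCAP by -4.03 and SREBF1 by -3.90. STARD4 (38.2% GC) departed by 1.7, SC5D by 1.61 and HMGCS1 by 1.58, and SCD by only 0.06. CYP51A1 left this trend, at -2.12 with 40.9% GC. Every comparison is therefore given with all 12 libraries and with the 11 that leave this library out; the biological coefficient of variation, the typical relative spread within a group, was 0.329 and 0.131 in these fits.

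**Figure D1:**
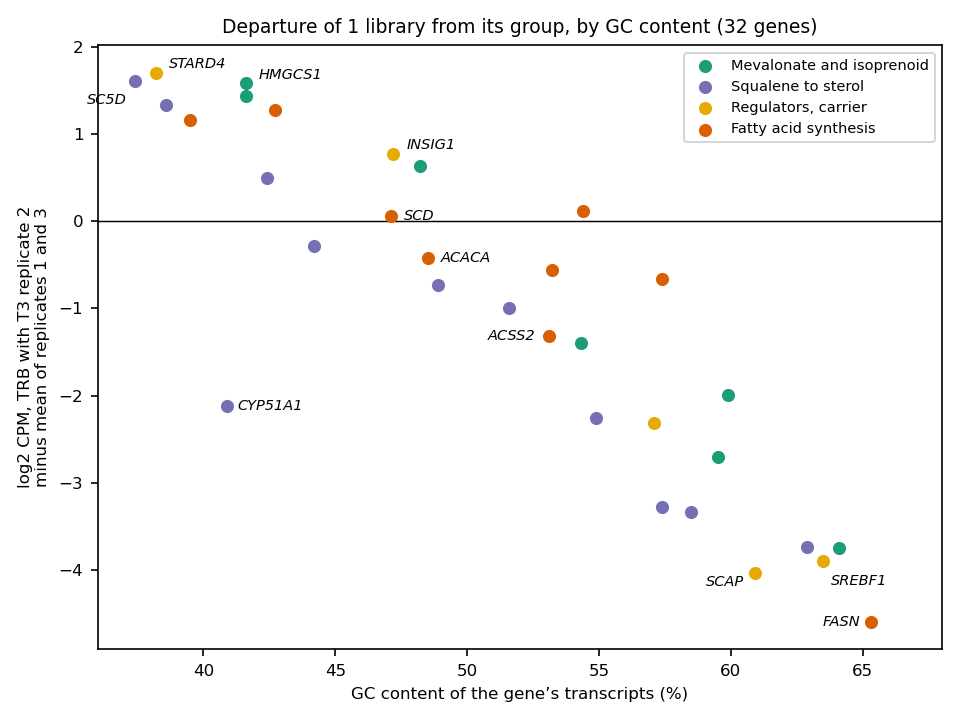
Departure of TRB with T3 replicate 2 from the mean of replicates 1 and 3 (vertical axis, log2 CPM) against transcript GC content (horizontal axis, %), 1 point per gene, coloured by role. GC-poor genes such as STARD4 lie up to 1.7 above 0 and GC-rich genes such as FASN as far as 4.59 below it, while SCD lies near 0.

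The promoters of 6 members are shown: 4 belong to genes that rose with T3 in TRB cells in both fits (SCD, INSIG1, STARD4, MSMO1), SREBF1 passed with 11 libraries only, and SREBF2 alone held the sterol regulatory element searched for. Each window runs from 250 bases before to 50 after the start site in RefSeq on GRCh38.p14, 5′ to 3′ on the gene's strand. Capitals mark matches on either strand to 4 motifs: the sterol regulatory element core TCACNCCAC, the box bound by NF-Y, which reads CCAAT, the palindromic E-box, which reads CACGTG, and the direct repeat bound by thyroid hormone receptors, in which AGGTCA stands on both sides of 4 free bases. SCD lies at chr10:100346983-100347282 (plus strand), INSIG1 at chr7:155297628-155297927 (plus), STARD4 at chr5:111512486-111512785 (minus), MSMO1 at chr4:165327419-165327718 (plus), SREBF1 at chr17:17836937-17837236 (minus) and SREBF2 at chr22:41832855-41833154 (plus).
SCD: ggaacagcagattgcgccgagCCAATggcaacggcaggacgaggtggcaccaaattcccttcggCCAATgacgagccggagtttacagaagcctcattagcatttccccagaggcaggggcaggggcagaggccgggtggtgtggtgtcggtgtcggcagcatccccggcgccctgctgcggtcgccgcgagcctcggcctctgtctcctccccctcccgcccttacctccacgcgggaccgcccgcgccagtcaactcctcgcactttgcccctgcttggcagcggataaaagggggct
INSIG1: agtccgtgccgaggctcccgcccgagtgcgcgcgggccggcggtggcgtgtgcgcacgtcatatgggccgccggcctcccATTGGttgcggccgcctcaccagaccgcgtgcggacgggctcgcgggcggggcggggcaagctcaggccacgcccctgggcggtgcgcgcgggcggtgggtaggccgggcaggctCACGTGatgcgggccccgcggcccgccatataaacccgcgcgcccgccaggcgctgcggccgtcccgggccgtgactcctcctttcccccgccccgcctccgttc
STARD4: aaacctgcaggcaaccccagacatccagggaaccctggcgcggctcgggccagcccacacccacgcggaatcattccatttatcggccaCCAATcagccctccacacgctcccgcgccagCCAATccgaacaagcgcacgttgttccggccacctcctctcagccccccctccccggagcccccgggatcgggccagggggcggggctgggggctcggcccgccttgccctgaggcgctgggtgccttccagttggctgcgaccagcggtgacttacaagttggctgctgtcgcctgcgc
MSMO1: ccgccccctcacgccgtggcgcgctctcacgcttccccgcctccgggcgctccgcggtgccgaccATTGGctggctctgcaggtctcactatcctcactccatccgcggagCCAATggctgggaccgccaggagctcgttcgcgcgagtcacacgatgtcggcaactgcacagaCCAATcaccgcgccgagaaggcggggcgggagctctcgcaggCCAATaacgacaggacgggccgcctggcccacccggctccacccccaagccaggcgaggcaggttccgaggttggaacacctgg
SREBF1: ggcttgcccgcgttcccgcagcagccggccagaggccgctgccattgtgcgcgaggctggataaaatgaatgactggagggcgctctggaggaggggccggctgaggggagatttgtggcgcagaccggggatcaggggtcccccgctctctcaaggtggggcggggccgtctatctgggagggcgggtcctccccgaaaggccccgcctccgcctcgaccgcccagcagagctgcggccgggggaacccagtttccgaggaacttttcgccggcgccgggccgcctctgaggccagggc
SREBF2: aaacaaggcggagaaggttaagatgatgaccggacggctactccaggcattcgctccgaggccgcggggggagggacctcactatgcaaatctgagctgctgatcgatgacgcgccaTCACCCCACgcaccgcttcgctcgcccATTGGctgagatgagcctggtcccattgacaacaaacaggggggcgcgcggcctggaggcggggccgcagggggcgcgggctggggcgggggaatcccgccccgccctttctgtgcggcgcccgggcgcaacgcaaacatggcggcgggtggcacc

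MSMO1 holds 4 CCAAT boxes, SCD and STARD4 hold 2 each on the gene's strand, and INSIG1 holds 1 beside an E-box that starts at -55 from the start site. SREBF1 holds no match to any of the 4 motifs. The sterol element of SREBF2 starts at -133. RefSeq windows were found for 28 of the 32 genes (38 windows, since some genes have several), and not for FDFT1, SQLE, ACAT2 and FASN. CCAAT occurred in 25 of the 38 windows (65.8%), against 34.6% of all 35116 windows in the table. Among members that T3 raised in TRB cells (11 libraries) it occurred in 11 of 18 windows (61.1%), and among the others in 14 of 20 (70%). CACGTG occurred in 5 of 38 windows (13.2%) against 7.26% of all, TCACNCCAC in 1 (2.63%) against 1.13%, and the direct repeat in 0 against 0.0199%. Several or overlapping matches in a window were counted once, and a match describes the letters of the window only.

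Levels per transcript length are given as RPKM, which divides CPM by kilobases of transcript, from exon lengths in GENCODE 29. In EV cells with vehicle, ACLY, which makes cytosolic acetyl-CoA from citrate, stood highest at 61.2 RPKM, followed by the squalene epoxidase SQLE at 47.3, the desaturase SCD at 46.7, the acetyl-CoA carboxylase ACACA at 44.9 and the fatty acid synthase FASN at 39.3. The desaturases FADS1 and FADS2 were lowest, at 0.0717 and 0.0758 RPKM, below CYP51A1 at 0.843. In TRB cells with T3, replicates 1 and 3, SCD was highest at 190 RPKM, followed by ACACA at 78.7, ACLY at 61.5 and FASN at 61.0. GENCODE 29 places 83.2% of the CYP51A1 exon length and 52.3% of that of ACAT2 under other genes, and the strand setting of the counting is not given in the sources used here, so the values of these 2 genes are uncertain. FADS1 and FADS2 overlap in their exons, and HMGCS1, IDI1 and FDPS share 14.8% to 18.6% of theirs with antisense genes.

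**Figure D2:**
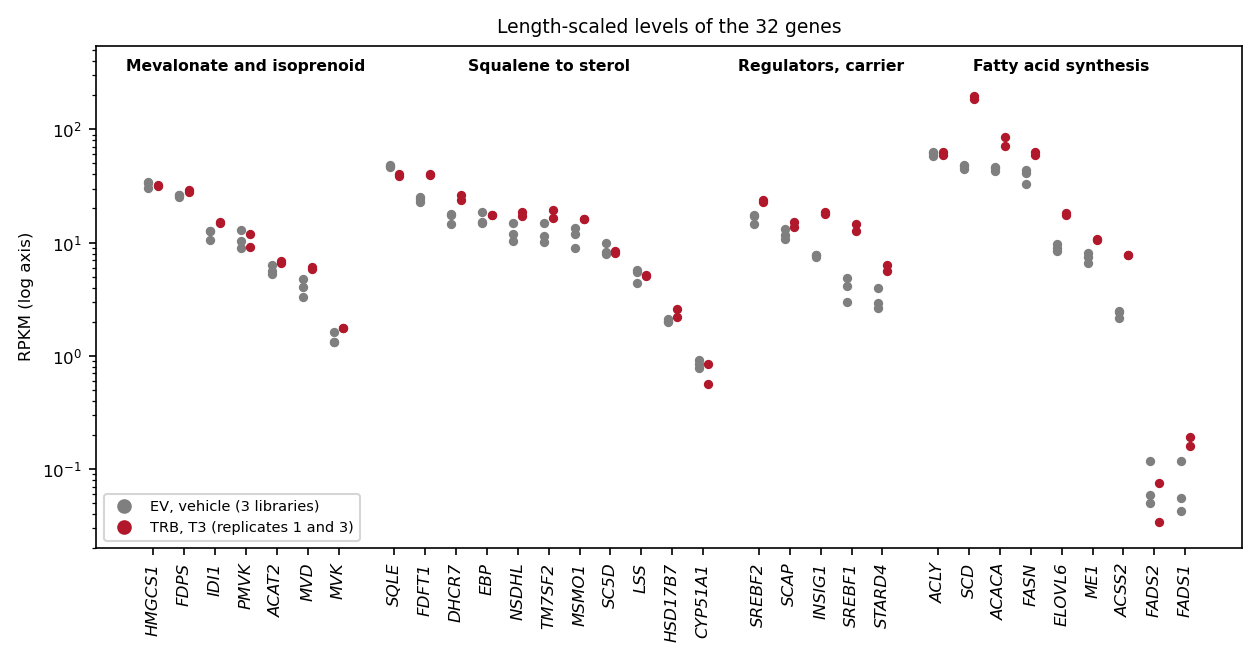
RPKM (log axis) of the 32 genes by role, 1 point per library, for EV with vehicle (grey, 3 libraries) and TRB with T3 (red, replicates 1 and 3). SCD rises from about 46.7 to 190 RPKM on average, while ACLY stands at 61.2 and 61.5 and FADS1 and FADS2 stay below 1 RPKM.

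In TRB cells given T3 rather than vehicle, SCD rose 5.74-fold with 12 libraries, and the acetyl-CoA synthetase ACSS2, the elongase ELOVL6, the carboxylase ACACA, the malic enzyme ME1, the SREBP retention factor INSIG1, the sterol carrier STARD4 and the enzymes IDI1 and MSMO1 also rose. With all 12 libraries, 9 of 31 tested members passed (29%) and all 9 were higher, beside 14.7% of all genes tested (8.54% higher and 6.2% lower). FADS2 was too low to be tested in that fit. Without TRB with T3 replicate 2, 13 members were higher and 2 lower of 32 (46.9% called), beside 33.3% of all genes (18.1% higher and 15.2% lower). The 9 members passed in both fits. The median log2 change over members was 0.22 with 12 libraries and 0.46 with 11, against 0.01 and -0.01 over all genes tested. TRB with T3 lay wholly above TRB with vehicle for 13 members with 12 libraries (17.3% of all genes) and 20 with 11 (30.3%), and wholly below for 3 (23.5%) and 3 (36%). Since whole cultures were measured, fewer cells of a kind and less RNA per cell cannot be told apart. Of the 9, INSIG1, SCD, ELOVL6 and ACSS2 passed whichever single library was left out, and IDI1, MSMO1, STARD4, ACACA and ME1 did not pass without 1 or more of the TRB vehicle replicates. ACACA also did not pass with scaling by total counts or with no filter on low counts. Scaling by total counts moved the median of all genes to -0.14. SCD and INSIG1 alone passed when only the 2 compared groups were fitted.

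**Figure D3:**
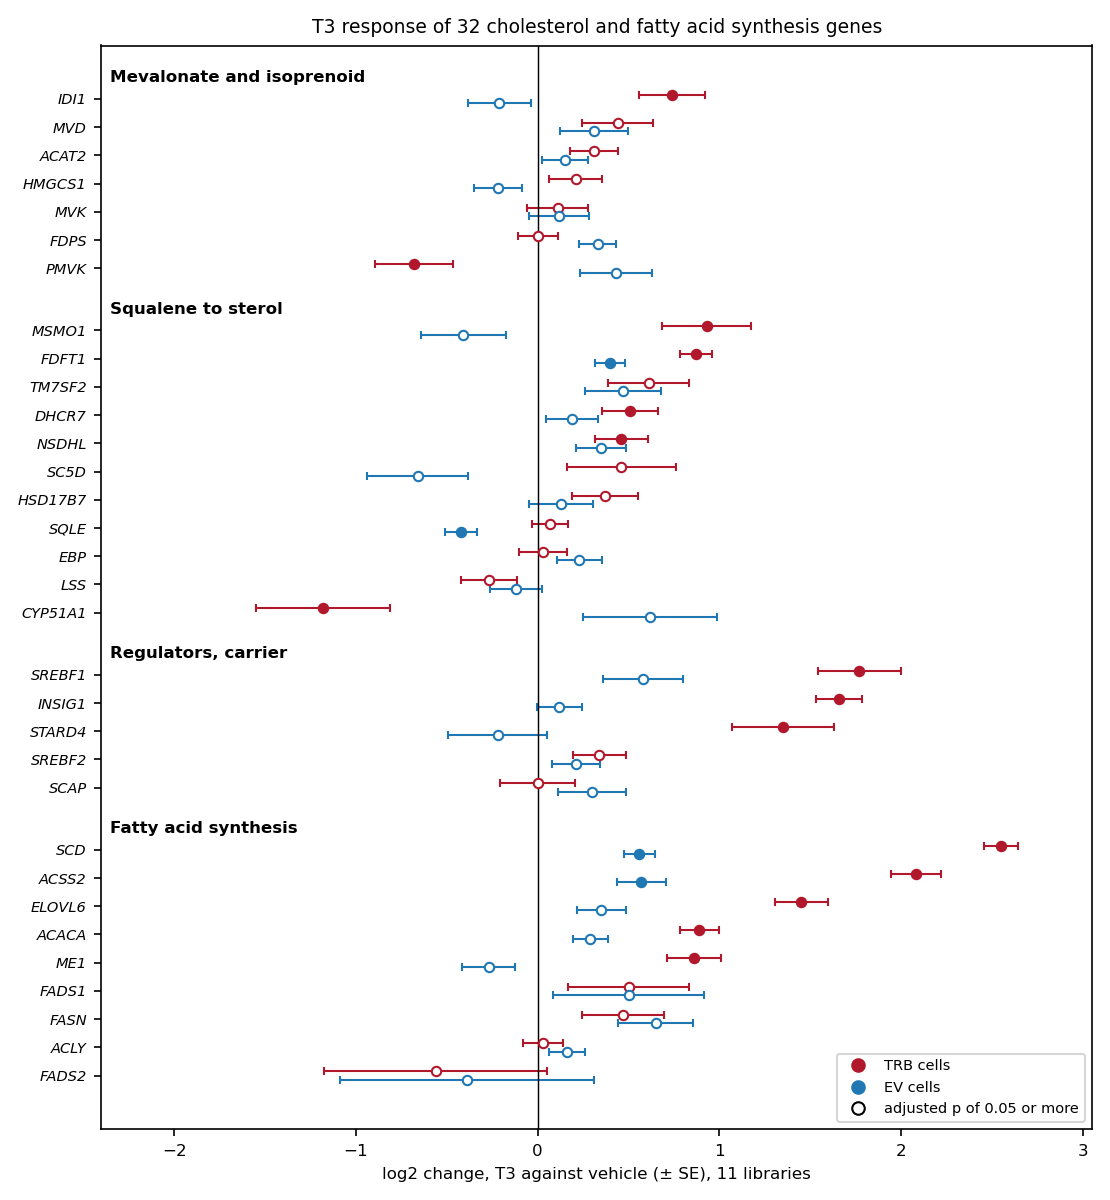
Log2 change with T3 (horizontal axis, ± SE) of each of the 32 genes in TRB cells (red) and EV cells (blue), from edgeR on 11 libraries; filled points have an adjusted p under 0.05. The 13 higher and 2 lower members in TRB cells include all of the large changes, from SCD at 2.55 to CYP51A1 at -1.18, while filled EV points lie between -0.42 and 0.57.

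Fatty acid synthesis held SCD, the member with the largest log2 change: 5 of its 8 tested members were higher with 12 libraries (62.5%, beside 14.7% of all genes called), and 5 of 9 with 11 (55.6%, beside 33.3%). SCD puts the first double bond into saturated fatty acids. Its level was 173, 186 and 181 CPM with vehicle and 1050, 1060 and 992 CPM with T3. The groups lay far apart, and replicate 2 lay with the others for this gene. SCD changed on the log2 scale by 2.52 (SE 0.130, edgeR adjusted p 1.38e-06) with 12 libraries and 2.55 (SE 0.0922, edgeR adjusted p 1.06e-09) with 11.

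ACSS2, which activates acetate to acetyl-CoA, stood at 10.8, 10.0 and 10.2 CPM with vehicle and 42.0, 16.5 and 42.1 CPM with T3. Replicate 2 was the low value, yet all 3 T3 libraries lay above the vehicle libraries. ACSS2 changed on the log2 scale by 1.71 (SE 0.315, edgeR adjusted p 0.00439) with 12 libraries and 2.08 (SE 0.138, edgeR adjusted p 2.02e-07) with 11. ELOVL6, which lengthens saturated and monounsaturated chains, stood at 48.4, 48.8 and 50.7 CPM with vehicle and 132, 316 and 128 CPM with T3. Here replicate 2 was the high value, and the groups did not overlap. Its log2 change was 1.96 (edgeR adjusted p 0.00249) and 1.45 (edgeR adjusted p 7.3e-06) in the 2 fits.

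ACACA, which makes malonyl-CoA and commits carbon to fatty acids, stood at 605, 535 and 574 CPM with vehicle and 1120, 763 and 926 CPM with T3. All T3 libraries were higher, with replicate 2 the lowest of them. Its log2 change was 0.71 (edgeR adjusted p 0.014) with 12 libraries and 0.89 (edgeR adjusted p 3.8e-05) with 11. ME1, a cytosolic source of NADPH, stood at 19.2, 21.4 and 20.9 CPM with vehicle and 35.7, 80.8 and 36.2 CPM with T3. The groups did not overlap, and the log2 change was 1.31 (edgeR adjusted p 0.0157) and 0.86 (edgeR adjusted p 0.000735).

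FASN, which assembles palmitate from malonyl-CoA, did not pass in either fit. It stood at 411, 425 and 440 CPM with vehicle and at 585, 23.2 and 557 CPM with T3. Replicates 1 and 3 were above every vehicle library and replicate 2 far below them. The log2 change was -0.13 (SE 0.763, edgeR adjusted p 0.919) with 12 libraries and 0.47 (SE 0.226, edgeR adjusted p 0.132) with 11. ACLY stood at 336, 316 and 325 CPM with vehicle and 329, 218 and 313 CPM with T3, overlapping, with log2 changes of -0.18 and 0.03 (edgeR adjusted p 0.496 and 0.876). FADS1, a desaturase in the route to polyunsaturated fatty acids, was at 1.01 to 1.64 CPM with vehicle and 1.62 to 1.98 with T3. Its log2 change of 0.48 or 0.50 did not pass. FADS2, the desaturase before it in that route, stood at 0.755 to 1.42 CPM with vehicle and 0.18 to 0.826 with T3, a log2 change of -0.56 (edgeR adjusted p 0.527) with 11 libraries.

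**Figure D4:**
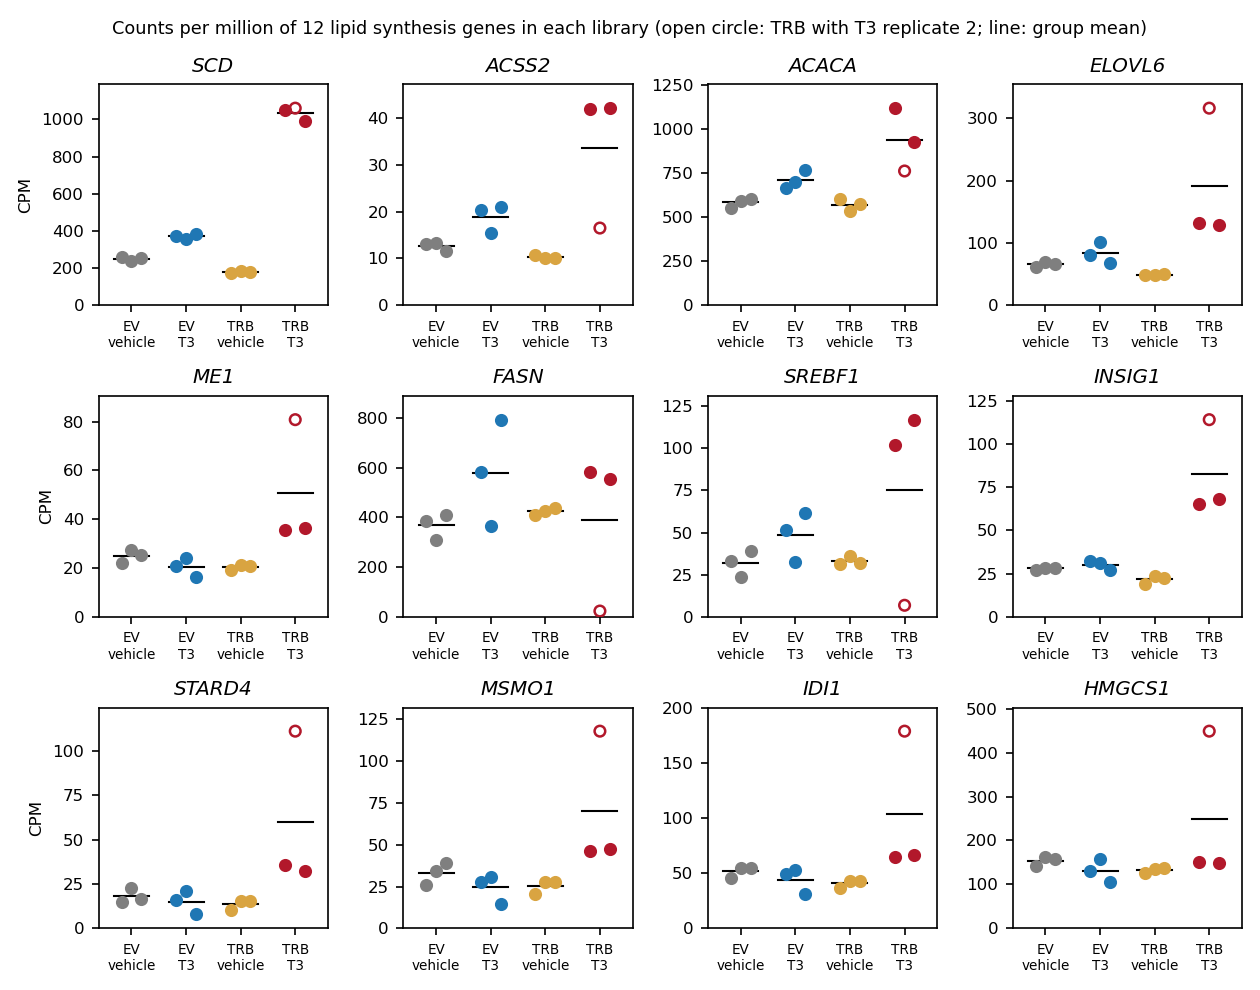
CPM of 12 of the 32 genes in each library, by group; each panel has its own axis from 0, lines are group means, and open circles are TRB with T3 replicate 2. SCD stands between 992 and 1060 CPM in all 3 libraries of TRB with T3. In FASN and SREBF1 the open circle falls well below every other library, and in HMGCS1, IDI1, MSMO1, STARD4, INSIG1, ME1 and ELOVL6 well above.

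Among the regulators and carriers, 2 of 5 were higher with 12 libraries (40%, beside 14.7% of all genes called) and 3 of 5 with 11 (60%, beside 33.3%). INSIG1, which holds the SCAP-SREBP complex in the endoplasmic reticulum and is itself a known SREBP target, stood at 18.8, 23.5 and 22.7 CPM with vehicle and 65.1, 114 and 68 CPM with T3. Every T3 library was above every vehicle library, with replicate 2 the highest. The log2 change was 1.92 (SE 0.231, edgeR adjusted p 0.000306) with 12 libraries and 1.66 (SE 0.127, edgeR adjusted p 7.07e-07) with 11. STARD4, which carries cholesterol between membranes, stood at 10.3, 15.4 and 15.4 CPM with vehicle and 35.8, 111 and 32.1 CPM with T3. The groups did not overlap, and the log2 change of 2.12 (edgeR adjusted p 0.0159) became 1.35 (edgeR adjusted p 0.00245) without replicate 2, the highest library.

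SREBF1 encodes SREBP-1, which chiefly drives fatty acid genes. It stood at 31.4, 36.2 and 31.8 CPM with vehicle and 102, 6.84 and 117 CPM with T3. Replicates 1 and 3 lay far above the vehicle libraries and replicate 2 below all of them, so the groups overlapped only through that library. The log2 change was 1.19 (SE 0.698, edgeR adjusted p 0.268) with 12 libraries and 1.77 (SE 0.227, edgeR adjusted p 6.43e-05) with 11. SREBF2 encodes SREBP-2, which chiefly drives cholesterol genes. It stood at 139, 149 and 145 CPM with vehicle and 173, 35.1 and 180 CPM with T3. The log2 change was -0.16 (edgeR adjusted p 0.829) and 0.34 (edgeR adjusted p 0.0936). SCAP, the SREBP escort, stood at 93.7 to 98.3 CPM with vehicle and 87.4, 5.22 and 98.6 CPM with T3, and its log2 change with 11 libraries was 0.00 (SE 0.206, edgeR adjusted p 0.998).

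Of the 7 mevalonate and isoprenoid genes, 1 was higher with 12 libraries (14.3%, beside 14.7% of all genes called), and 1 was higher and 1 lower with 11 (28.6%, beside 33.3%). HMGCS1, the cytosolic HMG-CoA synthase, stood at 126, 136 and 138 CPM with vehicle and 151, 449 and 148 CPM with T3. The T3 libraries were all above, by little except in replicate 2, and the log2 change was 0.90 (edgeR adjusted p 0.137) and 0.21 (edgeR adjusted p 0.296). IDI1, which interconverts the isoprenoid building blocks, stood at 36.5, 43.2 and 42.6 CPM with vehicle and 65.1, 179 and 66.6 CPM with T3. The groups did not overlap, and the log2 change was 1.34 (edgeR adjusted p 0.0352) and 0.74 (edgeR adjusted p 0.00772). The IDI1 call with 11 libraries did not hold in every fit that left out a further library.

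PMVK, the second of the kinases that act on mevalonate, was the gene that fell in this group. It stood at 23.0, 19.5 and 23.8 CPM with vehicle and 11.7, 1.62 and 15.1 CPM with T3. All T3 libraries were lower, with replicate 2 the lowest, and the log2 change was -1.20 (edgeR adjusted p 0.162) with 12 libraries and -0.68 (edgeR adjusted p 0.0252) with 11. The call was lost in 3 of the 11 fits that left out a further library. The thiolase ACAT2, which joins acetyl-CoA units, mevalonate kinase MVK, the decarboxylase MVD and farnesyl diphosphate synthase FDPS did not pass in either fit. Their log2 changes with 11 libraries were 0.31, 0.11, 0.44 and 0.00.

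Between squalene and cholesterol, 1 of 11 genes was higher with 12 libraries (9.09%, beside 14.7% of all genes called), and 4 were higher and 1 lower with 11 (45.5%, beside 33.3%). MSMO1, which removes methyl groups from sterol intermediates, stood at 20.4, 27.8 and 27.5 CPM with vehicle and 46.3, 118 and 47.2 CPM with T3. The groups did not overlap. The log2 change was 1.48 (edgeR adjusted p 0.0314) and 0.93 (edgeR adjusted p 0.0107). Its call with 11 libraries did not hold in every fit that left out a further library. FDFT1, the squalene synthase at the branch to sterols, stood at 117, 119 and 116 CPM with vehicle and 204, 125 and 210 CPM with T3. Each T3 library was higher, replicate 2 only just, and the log2 change was 0.62 (edgeR adjusted p 0.0531) with 12 libraries and 0.87 (SE 0.0890, edgeR adjusted p 9.27e-06) with 11.

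DHCR7, which catalyses a last step to cholesterol, stood at 70.6, 81.2 and 74.5 CPM with vehicle and 98.8, 10.3 and 110 CPM with T3. NSDHL, a decarboxylating sterol dehydrogenase, stood at 27.0, 26.1 and 27.2 CPM with vehicle and 36.8, 17.4 and 34.1 CPM with T3. In both genes replicates 1 and 3 were above the vehicle libraries and replicate 2 below. The log2 changes with 11 libraries were 0.51 (edgeR adjusted p 0.0217) for DHCR7 and 0.46 (edgeR adjusted p 0.0286) for NSDHL. These calls were lost in 4 and 6 of the 11 fits that left out a further library. With 12 libraries DHCR7 changed by -0.05 and NSDHL by 0.14.

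SQLE, the squalene epoxidase, stood at 164, 175 and 165 CPM with vehicle and 165, 241 and 175 CPM with T3. The groups overlapped, and the log2 change was 0.21 (edgeR adjusted p 0.396) and 0.07 (edgeR adjusted p 0.635). CYP51A1, the lanosterol demethylase, stood at 5.18, 5.34 and 7.55 CPM with vehicle and 3, 0.18 and 2 CPM with T3. All T3 libraries were lower, and the log2 change was -1.67 (edgeR adjusted p 0.0755) with 12 libraries and -1.18 (edgeR adjusted p 0.027) with 11, for a gene whose counts are uncertain as stated above. That call was lost in 3 of the 11 fits that left out a further library, with an edgeR adjusted p of up to 0.168. The cyclase LSS, the reductase TM7SF2, the 17-beta-hydroxysteroid dehydrogenase family member HSD17B7, the isomerase EBP and the desaturase SC5D did not pass in either fit. With 11 libraries their log2 changes were -0.27, 0.61, 0.37, 0.03 and 0.46, and TM7SF2 came nearest the threshold (edgeR adjusted p 0.0513).

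Fewer members passed in EV cells, which have the cells' own receptors only. Alignments to several places, which are not counted in genes, made up 69.6% to 91.95% of the counts in EV with T3 and 33.08% to 66.32% in EV with vehicle; their part in the results was not tested. With 12 libraries 0 of 31 tested members passed in edgeR, beside 0.229% of all genes (0.208% higher and 0.0208% lower). SCD and SQLE had an unadjusted p under 0.05 there, and DESeq2 called 1 member. With 11 libraries, SCD, ACSS2 and FDFT1 were higher and SQLE lower (4 of 32, 12.5%), beside 7.33% of all genes (3.76% higher and 3.57% lower). The library left out belongs to neither EV group. The biological coefficient of variation, estimated over all groups, was 0.329 with 12 libraries and 0.131 with 11. Fitted alone, the 2 EV groups gave 1 called member of 30, beside 1.49% of all genes. The T3 libraries lay wholly above the vehicle libraries for 5 members (10.9% of all genes) and wholly below for 2 (15.6%). SCD stood at 259, 239 and 253 CPM with vehicle and 370, 359 and 381 CPM with T3. The groups were well apart, a log2 change of 0.56 (SE 0.0831, edgeR adjusted p 0.00203) with 11 libraries and 0.56 (SE 0.123, edgeR adjusted p 0.137) with 12. ACSS2 stood at 13.0, 13.3 and 11.6 CPM with vehicle and 20.4, 15.4 and 21.0 CPM with T3. FDFT1 stood at 120 to 132 CPM with vehicle and 159 to 169 with T3, and SQLE at 201 to 208 with vehicle and 140 to 161 with T3. None of these 3 genes overlapped between groups, and their log2 changes with 11 libraries were 0.57 (edgeR adjusted p 0.0295), 0.40 (edgeR adjusted p 0.0151) and -0.42 (edgeR adjusted p 0.0165).

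The EV count depends on single libraries. Of the 4 calls with 11 libraries, SCD alone passed in every fit that left out a further library, and leaving out EV with T3 replicate 2 raised the count to 22 members beside 40.3% of all genes. Over 12130 genes, the Spearman correlation between GC content and a library's departure from the mean log2 CPM of all 12 libraries was -0.28 in that library, and 0.72 and 0.83 in EV with T3 replicates 1 and 3. FASN, the most GC-rich member, stood at 583, 364 and 794 CPM in EV with T3 against 385, 309 and 411 in EV with vehicle, and did not pass (log2 change 0.65, edgeR adjusted p 0.0730, 11 libraries). INSIG1 stood at 32.4, 31.4 and 26.8 CPM with T3 and 27.1, 28.4 and 28.5 with vehicle, and overlapped. With GC offsets on 11 libraries 7 members were called, 6 higher and 1 lower, beside 18.6% of all genes.

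Without hormone, edgeR called none of these genes between the vectors in either fit, while other fits called up to 7. In TRB against EV cells with vehicle, edgeR called 0 of 31 members with 12 libraries, beside 0.0208% of all genes (0.00693% higher and 0.0139% lower), and 0 of 32 with 11, beside 0.0742% (0.027% higher and 0.0472% lower). The TRB libraries lay wholly above the EV libraries for 8 members (15.7% of all genes, 11 libraries) and wholly below for 10 (20%). Unadjusted p was under 0.05 for 1 and 7 members, and on 12 libraries DESeq2 called 1 (0.0554% of all genes), limma-voom with quality weights 7 (10.8%) and edgeR on the compared groups alone 7 (11.2%). SCD had the smallest p. Its 3 TRB libraries (173 to 186 CPM) lay below its 3 EV libraries (239 to 259 CPM), a log2 difference of -0.46 (SE 0.0831, edgeR adjusted p 0.0861) with 11 libraries and -0.48 (edgeR adjusted p 1) with 12. INSIG1 lay lower too, at 18.8 to 23.5 CPM against 27.1 to 28.5, and PMVK higher, at 19.5 to 23.8 against 11.5 to 16.5, neither past the threshold (edgeR adjusted p 0.359 and 0.301 with 11 libraries).

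With T3 in both, TRB cells stood above EV cells in SCD, INSIG1, STARD4, MSMO1 and ME1 in both fits. With 12 libraries 5 of 31 members were higher and 0 lower, beside 6.68% of all genes (4.13% higher and 2.55% lower). The 5 were SCD, higher by 1.48 on the log2 scale, INSIG1 by 1.44, MSMO1 by 1.52, STARD4 by 1.98 and ME1 by 1.31. None of these 5 passed when only the compared groups were fitted (edgeR adjusted p 0.0584 to 0.365). By role, the calls with 11 libraries were 5 of 9 in fatty acid synthesis (55.6%) and 3 of 5 regulators and carriers (60%), beside 19.7% of all genes. From squalene to sterols there were 2 of 11 (18.2%) and in the mevalonate steps 1 of 7 (14.3%), both below that share. Same-numbered libraries of these 2 groups deviated together with 12 libraries (correlations of 0.136 to 0.867), but with 11 the correlations were -0.2 and 0.317. With the replicate number as a block ELOVL6 passed too, at 1.14 (edgeR adjusted p 0.0401, 12 libraries). With 11 libraries 11 of 32 were higher and 0 lower, beside 19.7% of all genes (11.8% higher and 7.9% lower). TRB lay wholly above EV for 17 members (19.7% of all genes) and wholly below for 0 (20.8%). SCD led at 1.52 (SE 0.0908, edgeR adjusted p 2.61e-07), followed by SREBF1 at 1.26 (edgeR adjusted p 0.00191), ACSS2 at 1.23 (edgeR adjusted p 4.72e-05), INSIG1 at 1.19 (edgeR adjusted p 3.56e-05), STARD4 at 1.18 (edgeR adjusted p 0.0116) and MSMO1 at 0.95 (edgeR adjusted p 0.0182). The other 5, ME1, ELOVL6, IDI1, ACACA and FDFT1, lay between 0.39 and 0.85. INSIG1, SREBF1, SCD, ACSS2 and ME1 passed whichever further library was left out. With 12 libraries MSMO1 and STARD4 each failed in 9 of the 12 fits that left out a library, and ME1 in 3.

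Receptor and hormone together were read from TRB with T3 set against vehicle-treated EV cells. With 12 libraries 7 members were higher and 0 lower, beside 10.6% of all genes (6.05% higher and 4.59% lower). With 11 there were 16 higher and 0 lower, beside 33.7% (18.5% higher and 15.2% lower). The groups did not overlap for 23 members that were higher (28% of all genes) and 1 that was lower (36.6%). SCD rose by 2.09 on the log2 scale (edgeR adjusted p 7.35e-09, 11 libraries), SREBF1 by 1.83 (edgeR adjusted p 6.04e-05), ACSS2 by 1.80 (edgeR adjusted p 9.42e-07), INSIG1 by 1.31 (edgeR adjusted p 7.01e-06), FADS1 by 1.26 (edgeR adjusted p 0.0216) and ELOVL6 by 1.04 (edgeR adjusted p 0.000138). The other 10 lay between 0.57 and 0.96: MVD, FDFT1, TM7SF2, NSDHL, DHCR7, SREBF2, STARD4, FASN, ACACA and ME1. Of these 16 calls 7 passed whichever further library was left out: FDFT1, INSIG1, SREBF1, ACACA, SCD, ELOVL6 and ACSS2. TM7SF2 lost its call in 8 of the 11 such fits, and MVD, FASN and STARD4 in 4 each. When only the compared groups were fitted, SCD and INSIG1 alone passed of the 7 called with 12 libraries. FADS1 stood at 0.434, 0.572 and 1.19 CPM with vehicle and 1.95, 1.98 and 1.62 CPM with T3, which is few counts, and 10 of the 12 fits that left out a library lost its call. With the replicate number as a block on 12 libraries, FADS1 did not pass (1.25, edgeR adjusted p 0.0792) and ME1 did (0.96, edgeR adjusted p 0.0453). This comparison shares its TRB with T3 libraries with T3 in TRB cells and with TRB against EV under T3. Its EV libraries are shared with T3 in EV cells and with TRB against EV in vehicle.

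Whether T3 acted differently in TRB and EV cells was tested by the interaction of vector and T3. This test uses the EV with T3 and TRB with T3 libraries, which differed in alignments to several places and in GC correlation as given above. The part of those differences in the interaction was not tested. With 12 libraries SCD and INSIG1 responded more in TRB cells (2 of 31), beside 2.59% of all genes (1.77% with a higher and 0.825% with a lower response). The difference in log2 change was 1.96 for SCD (SE 0.175, edgeR adjusted p 0.000487) and 1.81 for INSIG1 (SE 0.320, edgeR adjusted p 0.0158). INSIG1 did not pass without TRB with vehicle replicate 1 (edgeR adjusted p 0.0513). With 11 libraries 12 members had a higher response in TRB cells and 2 a lower one, of 32, beside 15.2% of all genes (8.55% higher and 6.68% lower). SCD (1.99, edgeR adjusted p 1.1e-06), STARD4 (1.57, edgeR adjusted p 0.0179), INSIG1 (1.54, edgeR adjusted p 0.000124), ACSS2 (1.51, edgeR adjusted p 3e-04), MSMO1 (1.34, edgeR adjusted p 0.0195) and SREBF1 (1.19, edgeR adjusted p 0.0234) differed most among the members with a higher response. The other 6 higher ones, ME1, ELOVL6, IDI1, ACACA, SQLE and FDFT1, lay between 0.47 and 1.13. For SQLE the difference of 0.49 comes from a change of -0.42 in EV cells beside 0.07 in TRB cells. PMVK (-1.12, edgeR adjusted p 0.0219) and CYP51A1 (-1.79, edgeR adjusted p 0.0368) responded in the lower direction in TRB cells, and the CYP51A1 call was lost in 9 of the 11 fits that left out a further library. INSIG1, SCD, ELOVL6, ACSS2 and ME1 passed whichever further library was left out.

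Of 36 other genes of lipid handling, 34 could be tested for T3 in TRB cells: 6 were higher and 1 lower with 12 libraries (20.6% called, beside 14.7% of all genes), and 10 higher and 5 lower with 11 (44.1%, beside 33.3%). NPC1, which exports cholesterol from lysosomes, stood at 55.6 to 62.9 CPM with vehicle and 278, 154 and 266 CPM with T3. All T3 libraries were far above, a log2 change of 2.28 (edgeR adjusted p 6.76e-09) with 11 libraries. The phosphatidate phosphatase LPIN1 rose by 1.55 (edgeR adjusted p 1.44e-05), the acyl-CoA synthetase ACSL1 by 1.05 (edgeR adjusted p 6.89e-06) and MID1IP1, which promotes assembly of acetyl-CoA carboxylase, by 0.82 (edgeR adjusted p 0.000551). Lower were the sterol exporter ABCG1 at -1.20 (edgeR adjusted p 3.66e-05), the oxysterol receptor NR1H3 at -0.88 (edgeR adjusted p 0.000824), ERLIN2, which takes part in degradation at the endoplasmic reticulum, at -0.57 (edgeR adjusted p 0.00721) and the exporter ABCA1 at -0.53 (edgeR adjusted p 0.0439). Of these 8, NPC1, LPIN1, ACSL1 and ABCG1 also passed with 12 libraries. THRSP, a lipogenic gene known to respond to T3 in liver, was listed at 0 in all 12 libraries, and ELOVL5, which elongates polyunsaturated fatty acids, held 0.106 CPM in 1 library and was listed at 0 in the others, values as uncertain as those of VIM.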

How the data were processed

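For each of the 12 libraries the authors deposited a file of raw counts by gene symbol. Per the submitters' processing notes the tools were CASAVA 1.7, STAR 2.7, HTSeq 0.10 and DESeq2 on hg38; strand use and annotation are not given in the sources used here. The 5 closing lines, which hold reads of no gene, entered neither library sizes nor tests. Of a file's counts, 19.03% (TRB with T3 replicate 2) to 91.95% (EV with T3 replicate 3) were alignments to several places. A deposited table of normalized values, with 11 columns of library values, was not used.

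Counts were tested in R 4.3.3 with edgeR 4.0.16 (quasi-likelihood, trimmed mean of M-values (TMM) scaling, filterByExpr with a minimum count of 10 and total of 15, 1 coefficient per group, Benjamini-Hochberg over all genes tested, threshold 0.05, two-sided), on 12 libraries (14431 genes) and on 11 (14825). CPM are TMM-scaled; log2 CPM carry 0.5 added. The procedure was tested on simulated data that held no GC trend and no departing library, so that test does not cover these features. Alternatives used DESeq2 1.42.0, limma 3.58.1, other scalings and filters, GC offsets (spline, 5 df, GENCODE 29), a replicate block and leaving out libraries. The labels give the groups the same replicate numbers without saying what they mark. With 12 libraries all 3 same-numbered pairs deviated together (correlation over 0.1) for TRB against EV under T3 (0.136 to 0.867). The same held for TRB with T3 against vehicle-treated EV cells (0.324 to 0.756), and in the other comparisons for 2 of 3 pairs. Some pairs of different numbers did so too, such as TRB with T3 replicate 1 and EV with T3 replicate 3 (0.823), while others were negative. Without TRB with T3 replicate 2 the same-numbered pairs gave -0.2 and 0.317 under T3. Against vehicle-treated EV cells they gave -0.203 and 0.158, so whether the numbers mark pairs is not settled.

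The members, the other gene lists and the tests were chosen with earlier results of these data known. All 32 members are named for T3 in TRB cells; elsewhere up to 6 past the threshold in each direction by log2 change with 11 libraries have values, the rest a range; of the other genes, up to 4 in each direction and THRSP. Per-library values are given for members that passed with 12 libraries and for 10 fixed ones. PMVK in TRB against EV with vehicle, FASN in EV cells, FDFT1, DHCR7, NSDHL and CYP51A1 libraries, and ELOVL5 were given after their values were seen.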

Additional observations from a re-analysis of the deposited data

Results flagged for a closer look

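The T3 response differed between TRB and EV cells by the interaction test of edgeR in these members, given as the difference in log2 change, TRB minus EV. With all 12 libraries it was 1.81 for INSIG1 and 1.96 for SCD. With 11 libraries it was 1.99 for SCD, 1.57 for STARD4, 1.54 for INSIG1, 1.51 for ACSS2, 1.34 for MSMO1, 1.19 for SREBF1, 1.13 for ME1, 1.10 for ELOVL6, 0.95 for IDI1, 0.60 for ACACA, 0.49 for SQLE and 0.47 for FDFT1. It was -1.12 for PMVK and -1.79 for CYP51A1.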

How the results depend on the processing

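Counts of called members depended on which libraries and fits were used; the fits without a further library were added after seeing the data. For T3 in TRB cells (9 called with 12 libraries) the count was 23 with limma-voom quality weights, 2 with the compared groups alone, 18 with GC offsets and 22 with GC offsets on 11 libraries, beside 54%, 4.52%, 44.6% and 57% of all genes. In the same order it was 17, 1, 2 and 7 (44.5%, 1.49%, 4.68% and 18.6% of all genes) for T3 in EV cells (0 called), 18, 0, 13 and 16 (45.3%, 0.241%, 30.5% and 42.8%) between the vectors under T3 (5), and 19, 2, 14 and 21 (53.8%, 2.81%, 39.5% and 53.7%) for receptor and hormone together against vehicle-treated EV cells (7). For TRB against EV in vehicle (0) it was 7, 7, 0 and 1 (10.8%, 11.2%, 0.0412% and 1.19%). The interaction (2), which has no fit of compared groups, gave 18 with quality weights, and 12 and 16 with GC offsets on 12 and 11 libraries (44%, 21% and 35.5%). DESeq2 called 1 member for T3 in EV cells, 1 for TRB against EV in vehicle, 8 between the vectors under T3, 11 for receptor and hormone together and 7 for the interaction (1.19%, 0.0554%, 13.2%, 15.3% and 7.08%). Other scalings and the filters on low counts left every count within 1.5 times. The cause of these shifts was not tested.

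Leaving out each library in turn gave 5 to 15 called members for T3 in TRB cells, 0 to 4 for T3 in EV cells, 0 to 0 for TRB against EV in vehicle, 2 to 11 between the vectors under T3, 3 to 16 for receptor and hormone together and 1 to 14 for the interaction. The highest count came each time without TRB with T3 replicate 2, except in TRB against EV in vehicle, where all were 0. In that fit 33.3%, 7.33%, 0.0742%, 19.7%, 33.7% and 15.2% of all genes passed in the same order. With 12 libraries the shares were 14.7%, 0.229%, 0.0208%, 6.68%, 10.6% and 2.59%. Counts from the other fits that left out libraries stand here without that share and do not set the members apart from all genes. Leaving out a further library beside TRB with T3 replicate 2 gave 9 to 19, 1 to 22, 0 to 4, 5 to 15, 8 to 20 and 5 to 18. The low values came without TRB with vehicle replicates 1 and 3 for T3 in TRB cells (5 each), without EV with T3 libraries between the vectors under T3 (2 each), and without EV with vehicle replicates for receptor and hormone together (3, 3 and 4). With 11 libraries, leaving out TRB with T3 replicate 1 gave 9, 5, 9 and 5 for T3 in TRB cells, the vectors under T3, receptor and hormone together and the interaction.

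Some members that were slightly negative with 12 libraries turned positive. For T3 in TRB cells with quality weights, MVD was 0.44, DHCR7 0.43, SREBF2 0.26 and FASN 0.40 on the log2 scale. With GC offsets on 11 libraries they were 0.38, 0.37, 0.19 and 0.43, and leaving out single libraries gave DHCR7 values from -0.42 (without TRB with T3 replicate 3) to 0.51 (without replicate 2). For TRB against EV with T3, DHCR7 was 0.37 and SREBF2 0.29 with quality weights, and 0.37 and 0.27 with GC offsets on 11 libraries, where the DHCR7 interaction was 0.38.

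Over all groups, deviations of same-numbered libraries correlated from -0.345 to 0.867 (13 of 18 pairs over 0.1, median 0.296, against -0.195 for different numbers). With 11 libraries they correlated from -0.339 to 0.693 (7 of 15, median 0.058). With the replicate block on 12 libraries the counts were 10, 0, 0, 6, 7 and 2 in the order above. In that fit 15.8%, 0.1%, 0.0139%, 7.4%, 10.7% and 2.74% of all genes passed in the same order. With the block on 11 libraries the counts were 17, 7, 0, 13, 15 and 15, and DHCR7 for T3 in TRB cells was 0.45. The shares of all genes there were 35.2%, 13.3%, 0.0809%, 21.7%, 31.8% and 22.1%. GC offsets with the block on 12 libraries, added after seeing the data, gave 18, 2, 0, 14, 14 and 12. Beside these counts stood 44.9%, 4.11%, 0.0412%, 30.9%, 39.2% and 21.3% of all genes. Beyond the calls named beside the 2 comparisons whose same-numbered libraries all deviated together, the block on 12 libraries changed 1 more. It added CYP51A1 for T3 in TRB cells (-1.84, edgeR adjusted p 0.0381). GC offsets with the block on 11 libraries were not run, since there same-numbered libraries did not all deviate together. Depth limits FADS1, FADS2 and CYP51A1, at 7.55 CPM or less.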
